A study of Mus musculus with 6 samples.

Results

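The genes described here are 10 transcripts that are used in embryonic stem cells (ESCs) as readouts of fibroblast growth factor (FGF) signaling through the kinase ERK: *Dusp4*, *Dusp6*, *Spry2*, *Spry4*, *Spred1*, *Etv5*, *Egr1*, *Fos*, *Ier3* and *Fgf4*. They were taken by symbol from a table of 37620 genes, all 10 were in it, and all 10 were among the 16023 genes that passed the filter on low counts. PolyA RNA was measured by RNA-seq in 3 wild-type and 3 *Ube2d3*-S138A libraries of mouse E14 ESCs, a line of strain 129/Ola grown in medium with serum. UBE2D3 is an E2 ubiquitin-conjugating enzyme, and the comparison asks how transcript levels differ when its serine is replaced by the alanine found in anamniotes. The wild-type group carried no edit, and the S138A group was made from the same line by CRISPR/Cas9. The methods state that edited clones were picked singly and that a mutant clone was used for functional work, but no source used here says whether the RNA came from more than 1 clone, so effects of the mutation and of a clone cannot be told apart. Nor do the labels say that the 3 libraries of a genotype came from separate cultures, so the tests below measure only the spread between these libraries, which may be technical. The S138A libraries are called A, B and C here, since their columns in the table are not numbered as replicates.

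FGF4, which ESCs make themselves, binds FGF receptors and activates the chain RAS, RAF, MEK and ERK, and active ERK phosphorylates transcription factors of the ETS family and others. This induces immediate early genes within minutes, without new protein synthesis, and then a set of inhibitors that act back on the chain: DUSP phosphatases remove phosphate from ERK, while Sprouty and SPRED proteins act upstream, at the level of RAS and RAF. In ESCs the pathway is known for preparing cells to leave the naive pluripotent state.

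The libraries held 33227593 to 37169770 counts, and levels are given below as CPM (counts scaled to a common library total) after TMM normalization, which corrects for differences in composition between libraries. In a principal component analysis, the first component (57.2% of the variance) set wild-type 3 and S138A C apart from the other 4 libraries, and the second (25.6%) separated the genotypes. This grouping was seen in the data and is not in the labels. Values are therefore given for each library, and each test of a member is given for all 6 libraries and, where the answer changes, with a replicate block or for the 4 libraries without these. The summed level of 9 markers of ESCs ranged from 6655 to 6787 CPM in wild-type libraries and from 6672 to 6779 CPM in S138A libraries. In the fit with a replicate block described below, *Zfp42* was lower in S138A (-0.36 on the log2 scale, edgeR adjusted p = 0.0321). *Klf4* was higher (0.39, edgeR adjusted p = 0.0251). These were 1 marker each way, where 9.13% of all genes were lower and 10.7% higher. In the 4 libraries without wild-type 3 and S138A C, *Klf4* passed (edgeR adjusted p = 0.032) and *Zfp42* did not (edgeR adjusted p = 0.078). *Ube2d3* RNA itself measured 472.9, 459.1 and 304.3 CPM in the wild-type libraries and 491.0, 429.3 and 265.0 CPM in the S138A ones, and a change of 1 amino acid is not visible in such counts.

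Upstream sequence is shown for *Dusp6* and *Fos*, a late inhibitor and an immediate early gene, because these members held the most matches to the motifs searched and fell into opposite patterns across libraries, described below. The sequences are the 250 bases before the annotated gene start, 5′ to 3′ on the strand of the gene, from RefSeq on GRCm38.p6, at chr10:99262981-99263230 (plus strand) for *Dusp6* and chr12:85473640-85473889 (plus strand) for *Fos*. Capitals mark CGGAA, the core of many ETS sites, read on either strand (TTCCG is its reverse complement), and TGACG, the core of the CRE, which CREB and ATF proteins bind.
Dusp6: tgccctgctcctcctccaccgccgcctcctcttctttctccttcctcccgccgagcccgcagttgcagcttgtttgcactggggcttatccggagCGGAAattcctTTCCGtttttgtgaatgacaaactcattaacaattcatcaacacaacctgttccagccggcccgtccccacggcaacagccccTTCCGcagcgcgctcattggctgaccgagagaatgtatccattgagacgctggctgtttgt
Fos: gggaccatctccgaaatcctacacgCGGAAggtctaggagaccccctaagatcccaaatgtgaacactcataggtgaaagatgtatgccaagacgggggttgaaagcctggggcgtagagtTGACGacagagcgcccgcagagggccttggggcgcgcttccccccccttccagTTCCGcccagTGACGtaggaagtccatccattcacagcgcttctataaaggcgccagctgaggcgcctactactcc

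The *Dusp6* window held 3 matches to CGGAA and none to TGACG. The *Fos* window held 2 matches to CGGAA and 2 to TGACG. The window of *Spred1* held 1 match to CGGAA, and those of *Spry2*, *Etv5* (2 annotated starts), *Ier3* and *Fgf4* held none to either motif. Among all 32851 windows of this length, 25.2% held CGGAA and 17.8% held TGACG. The AP-1 site TGANTCA (6.75% of windows) and the CArG box bound by SRF (1.47%) were matched in none of the 8 windows of the 7 members that the RefSeq table covers. These searches describe letters in a window and show no binding. Sequence outside the windows was not searched, so a window without a match does not mean that the gene lacks the site. *Dusp4*, *Egr1* and *Spry4* were not analyzed for motifs here.

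The 10 genes spanned a wide range of levels. Per kilobase of the longest coding transcript, the scale on which genes can be compared, *Etv5* was the highest in wild-type libraries at 145.3 ± 13.3 CPM per kilobase (SD, n = 3). *Fgf4* followed at 88.2 ± 24.8, and *Spry2* at 45.3 ± 9.19 CPM per kilobase. Below them, in order, came *Dusp6* (34.8), *Spry4* (33.8), *Spred1* (27.6), *Egr1* (18.9), *Fos* (14.6), *Dusp4* (13.6) and *Ier3* (10.8 CPM per kilobase). From *Spry2* down, each gene differed from the next by less than the larger of their SDs. In S138A libraries *Etv5* (108.0 CPM per kilobase), *Fgf4* (74.1) and *Spry2* (59.7) were again the 3 highest, while *Fos* stood at 34.8 ± 29.4 CPM per kilobase, between *Dusp6* (39.5) and *Spred1* (23.9). The order below *Fgf4* depends on the length used: with the mean length of all annotated transcripts *Dusp6* (57.3) was above *Spry2* (45.3) in wild-type, and in S138A *Fos* (67.2) and *Dusp6* (65.1) were above *Spry2* (59.7 CPM per kilobase). The mean CPM of *Etv5* exceeded that of 98.3% of the genes tested, and that of *Ier3* exceeded 46.2%.

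**Figure D1:**
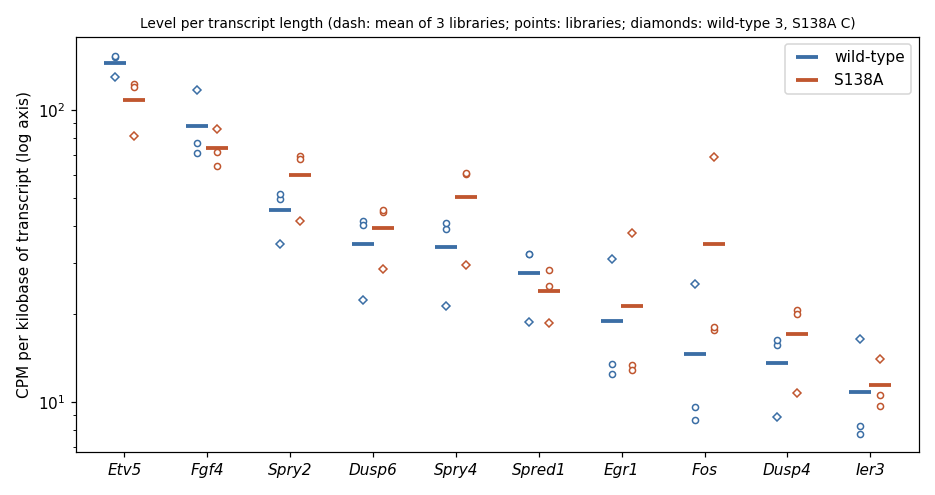
Level of each gene on a log axis, in CPM per kilobase of its longest coding transcript, with dashes for the mean of 3 libraries and points for single libraries (blue, wild-type and orange, S138A; diamonds, wild-type 3 and S138A C). *Etv5* was the highest in both genotypes (145.3 and 108.0), and the *Fos* libraries were the most spread.

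With all 6 libraries, none of the 10 genes passed edgeR's quasi-likelihood test at a Benjamini-Hochberg adjusted p of 0.05, and the same test called 0% of the 16023 genes, of which 2270 had an unadjusted p under 0.05. DESeq2 called 797 genes (4.97%, with 2.62% higher and 2.35% lower in S138A) and none of the members, whose smallest DESeq2 adjusted p was 0.231, for *Etv5*. Exact permutation tests of 3 against 3 libraries cannot go below a two-sided p of 0.1, and only *Etv5* reached that value. Another fit used the final digit of the column names as a block, called the replicate block here. No label says that equal digits share a replicate, a day or a batch. This fit called 19.8% of all genes (10.7% higher and 9.13% lower in S138A) and 5 members. These were *Dusp4*, *Spry2*, *Spry4* and *Fos*, which were higher in S138A, and *Etv5*, which was lower. Among the 4 libraries without wild-type 3 and S138A C, edgeR called 29.6% of all genes (15.3% higher and 14.3% lower) and 7 members, namely those 5 with *Ier3* higher and *Spred1* lower. The members' median log2 fold change over all 6 libraries was 0.18, beside 0.02 over all genes tested.

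**Figure D2:**
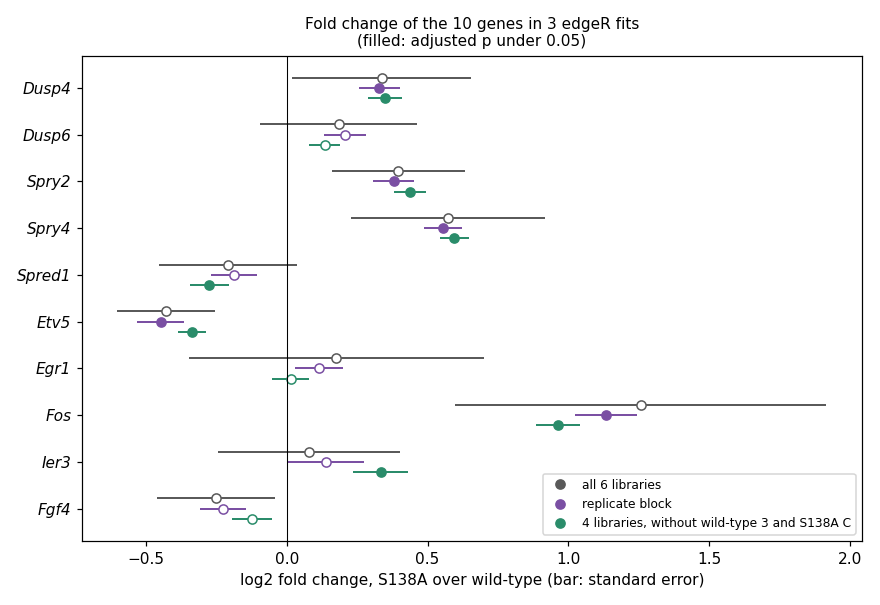
Log2 fold change of S138A over wild-type with its standard error in 3 edgeR fits: all 6 libraries (grey), with a replicate block (purple) and without wild-type 3 and S138A C (green), filled where the adjusted p was under 0.05. No grey point is filled, and the estimates of *Fos* lie between 0.96 and 1.26 in the 3 fits.

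The phosphatase genes *Dusp4* and *Dusp6* were lowest in wild-type 3 and S138A C. *Dusp6* (ENSMUSG00000019960, GRCm38 chr10:99263231-99267489, plus strand) encodes a cytoplasmic phosphatase specific for ERK and measured 116.6, 112.4 and 62.6 CPM in the wild-type libraries and 124.9, 126.9 and 79.6 CPM in the S138A ones. The genotypes overlapped, and wild-type 3 and S138A C were below all other libraries. Its log2 fold change was 0.18 (SE 0.28, edgeR adjusted p = 0.808), it did not pass with the block (0.21, edgeR adjusted p = 0.0917), and it turned to -0.055 without wild-type 3. *Dusp4* (ENSMUSG00000031530, GRCm38 chr8:34807297-34819894, plus strand), a nuclear phosphatase of ERK and other MAP kinases, measured 42.9, 44.5 and 24.2 CPM in the wild-type libraries and 56.6, 54.9 and 29.4 CPM in the S138A ones. The level in S138A C was thus below that of wild-type 1 and 2, although S138A A and B were above every wild-type library. *Dusp4* differed by 0.34 on the log2 scale (SE 0.32, edgeR adjusted p = 0.68) over all 6 libraries and by 0.33 with the replicate block (SE 0.07, edgeR adjusted p = 0.0238). Without wild-type 3 the difference was 0.10, and without S138A C it was 0.58.

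The Sprouty genes gave the larger differences among the inhibitors. *Spry4* (ENSMUSG00000024427), an inhibitor of receptor-driven RAS and RAF activation, measured 186.6, 194.3 and 101.4 CPM in the wild-type libraries and 286.9, 289.7 and 140.0 CPM in the S138A ones. S138A A and B lay above every wild-type library, while S138A C lay between wild-type 3 and the other wild-type libraries. The mean was 160.8 ± 51.5 CPM in wild-type and 238.9 ± 85.6 CPM in S138A (SD, n = 3), a log2 fold change of 0.57 (SE 0.35) that did not pass over all 6 libraries (edgeR adjusted p = 0.505) and passed with the block (0.55, edgeR adjusted p = 0.00592). It was 0.32 without wild-type 3 and 0.84 without S138A C. The annotated small genes *Gm27369* and *Gm27804* overlap *Spry4* on the other strand and have no row in the table of counts, and whether counting used the strand is not stated. *Spry2* (ENSMUSG00000022114, GRCm38 chr14:105891947-105896819, minus strand), its close relative, measured 103.6, 107.6 and 72.6 CPM in the wild-type libraries and 145.3, 141.2 and 86.9 CPM in the S138A ones. Again only S138A C fell within the wild-type range. *Spry2* differed by 0.40 on the log2 scale (SE 0.24, edgeR adjusted p = 0.501) and by 0.38 with the block (SE 0.07, edgeR adjusted p = 0.0161), and by 0.23 without wild-type 3 and 0.60 without S138A C.

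*Spred1* (ENSMUSG00000027351, GRCm38 chr2:117121374-117182279, plus strand) encodes a membrane inhibitor that brings the RAS GTPase activating protein neurofibromin to RAS. It measured 192.8, 193.1 and 113.0 CPM in the wild-type libraries and 169.9, 149.7 and 111.9 CPM in the S138A ones. It shared the low level in wild-type 3 and S138A C with the other inhibitors, but S138A A and B were below wild-type 1 and 2, opposite to the Sprouty and *Dusp* genes. The log2 fold change was -0.21 (SE 0.24, edgeR adjusted p = 0.745), and -0.27 without wild-type 3 and S138A C (SE 0.07, edgeR adjusted p = 0.0218). It was -0.43 without wild-type 3, -0.35 without S138A A, and between -0.10 and -0.06 without wild-type 1, wild-type 2 or S138A C.

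*Etv5* (ENSMUSG00000013089, GRCm38 chr16:22381309-22439719, minus strand), an ETS transcription factor induced by FGF signaling, was the member whose genotypes did not overlap. It measured 605.7, 610.8 and 516.6 CPM in the wild-type libraries and 489.3, 475.1 and 323.6 CPM in the S138A ones. Every S138A library was below every wild-type library, which was also so for 10.9% of all genes tested. Its mean was 577.7 ± 52.95 CPM in wild-type and 429.3 ± 91.8 CPM in S138A libraries (SD, n = 3), with a two-sided exact permutation p of 0.1. The log2 fold change of -0.43 (SE 0.17) did not pass over all 6 libraries (edgeR adjusted p = 0.336). It passed with the block (-0.45, edgeR adjusted p = 0.0157) and without wild-type 3 and S138A C (-0.34, edgeR adjusted p = 0.00314), and was -0.26 without S138A C.

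The immediate early genes *Fos*, *Egr1* and *Ier3* had the opposite pattern across libraries, with their highest levels in wild-type 3 and S138A C. *Fos* (ENSMUSG00000021250, GRCm38 chr12:85473890-85477273, plus strand), which forms AP-1 with JUN proteins, measured 18.2, 20.2 and 53.6 CPM in the wild-type libraries and 37.2, 37.9 and 145.1 CPM in the S138A ones. Wild-type 3 was above S138A A and B, so the genotypes overlapped. S138A C was 2.71 times as high as wild-type 3, and the mean of S138A A and B was 1.95 times that of wild-type 1 and 2. Its log2 fold change was 1.26 (SE 0.66, edgeR adjusted p = 0.449), with 1.13 under the block (SE 0.11, edgeR adjusted p = 0.00398) and 0.96 in the 4 libraries (SE 0.08, edgeR adjusted p = 0.000362). Without S138A C the log2 fold change of *Fos* was 0.29, and without wild-type 3 it was 1.93.

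*Egr1* (ENSMUSG00000038418), a zinc finger factor that ERK induces through ELK1 and SRF, measured 55.9, 60.7 and 137.9 CPM in the wild-type libraries and 60.2, 57.7 and 169.6 CPM in the S138A ones. The other 4 libraries lay between 55.9 and 60.7 CPM, and both genotypes had 1 library far above them. The log2 fold change was 0.18 (SE 0.52, edgeR adjusted p = 0.912) over all 6 libraries and 0.01 (SE 0.07, edgeR adjusted p = 0.897) in the other 4. It turned to -0.53 without S138A C, to -0.056 without wild-type 1 and to -0.026 without wild-type 2. *Ier3* (ENSMUSG00000003541, GRCm38 chr17:35821684-35822923, plus strand), which encodes a short-lived ERK substrate, was the least abundant, with 8.81, 9.33 and 18.6 CPM in the wild-type libraries and 10.98, 11.9 and 15.9 CPM in the S138A ones. Wild-type 3 was the highest library of all, and its log2 fold change was 0.08 (SE 0.32, edgeR adjusted p = 0.942). *Ier3* turned negative without wild-type 1 (-0.12), wild-type 2 (-0.091) or S138A C (-0.10), and was 0.33 in the 4 libraries (SE 0.10, edgeR adjusted p = 0.0372).

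*Fgf4* (ENSMUSG00000050917, GRCm38 chr7:144847367-144865243, plus strand), the ligand, measured 215.5, 232.8 and 353.5 CPM in the wild-type libraries and 195.5, 216.8 and 261.0 CPM in the S138A ones. It was highest in wild-type 3 and in S138A C within each genotype, and the genotypes overlapped. Its log2 fold change of -0.25 (SE 0.21, edgeR adjusted p = 0.637) did not pass in any of the 3 fits, and was -0.00026 without wild-type 3.

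**Figure D3:**
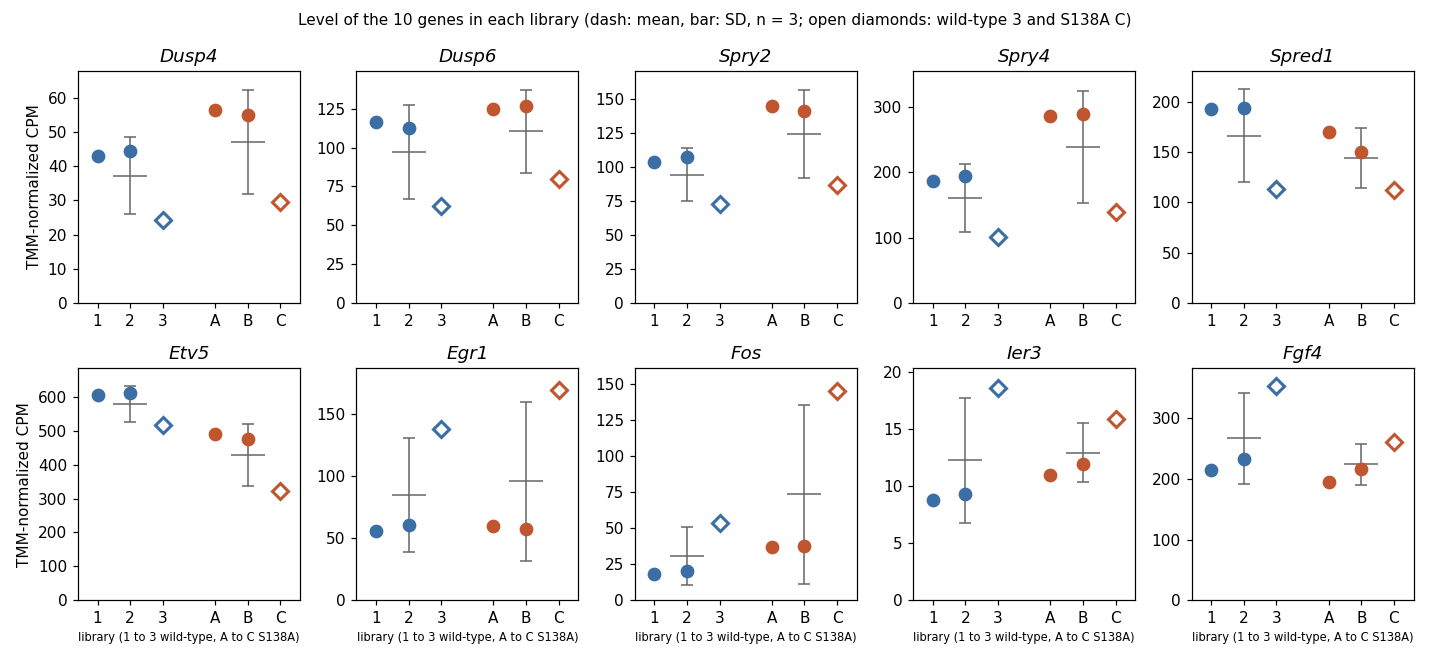
TMM-normalized CPM of each gene in each library on axes from 0 (blue, wild-type 1 to 3 and orange, S138A A to C; open diamonds, wild-type 3 and S138A C), with the mean and SD of 3 libraries in grey. The diamonds are the lowest points for *Dusp4*, *Dusp6*, *Spry2*, *Spry4* and *Spred1*, and the highest for *Egr1*, *Fos*, *Ier3* and *Fgf4*.

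Wild-type 3 and S138A C were thus both below the other 4 libraries for 5 members, all of them inhibitors, and both above them for 4 members, with *Etv5* as the exception. Of all genes tested, 24.4% had both libraries below and 24.6% had both above. Genes of the same kinds outside the members were not split in this way: among other immediate early genes both libraries were below for 8 and above for 7, and among other feedback inhibitors below for 3 and above for 3. The ratio of wild-type 3 to the mean of the other wild-type libraries ran from 0.532 for *Spry4* to 0.687 for *Spry2* among the 5 inhibitors, and that of S138A C to the other S138A libraries from 0.486 for *Spry4* to 0.700 for *Spred1*. Among the 4 genes that were higher, the ratio in wild-type 3 ran from 1.58 for *Fgf4* to 2.79 for *Fos*, and that in S138A C from 1.27 for *Fgf4* to 3.86 for *Fos*. For *Etv5* the ratios were 0.849 and 0.671. Between the highest and the lowest library, *Fos* differed 7.96-fold, *Egr1* 3.03-fold and *Spry4* 2.86-fold. The summed level of 8 heat shock and dissociation stress genes, beside these values, was 5851 CPM in wild-type 3 and 3549 CPM in S138A C, the lowest library of each genotype. *Hspa8* alone gave 4811 and 2616 CPM of these sums. Both libraries were below the other 4 for 6 of the 8 genes and above them for 1. With the block 3 of the 8 genes were lower in S138A and none was higher, beside 9.13% and 10.7% of all genes. In the 4 libraries without these 2, 4 genes were higher and 3 lower, beside 15.3% and 14.3%. The part of such genes in the pattern was not tested.

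Genes with the most similar pattern to 2 members were sought among 12467 genes of at least 2 CPM on average, by the root mean square difference of centered log2 CPM over the 6 libraries. Nearest to *Dusp6* were *Gripap1* (0.0342), *Klhl18* (0.0502) and *Msantd2* (0.0520), where the spread of *Dusp6* itself was 0.379. Nearest to *Egr1*, with a spread of 0.659, were *Idua* (0.0524), *Capn5* (0.0629) and *Retreg1* (0.0640). The members closest to them were *Dusp4* for *Dusp6* (0.112) and *Ier3* for *Egr1* (0.361). The points compared are 6 libraries, and all of these genes share the gap of wild-type 3 and S138A C to the rest.

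Ratios of plain counts between members that were both high or both low in wild-type 3 and S138A C were also described. This pair of ratios was chosen after the values were seen, and no test was made. The ratio of *Fos* to *Egr1* was 0.326, 0.334 and 0.389 in the wild-type libraries, against 0.619, 0.657 and 0.855 in S138A A to C. Every S138A library was above every wild-type library, as it was for 2.47% of all genes set against *Egr1* in this way. That share counts genes with and without the gap of *Egr1* in wild-type 3 and S138A C, while *Fos* was chosen to share it. The share is thus not a like background and does not show how rare the separation is. In plain CPM, 11.3% of all genes were higher in S138A without overlap. The ratio of *Spry4* to *Dusp6* was 1.60, 1.73 and 1.62 in the wild-type libraries, against 2.30, 2.28 and 1.76 in S138A A to C. Again every S138A library was above every wild-type library, as for 1.94% of genes set against *Dusp6*, but S138A C was close to wild-type 2. The same limit holds for this share, since *Spry4* was chosen to share the gap of *Dusp6*.

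**Figure D4:**
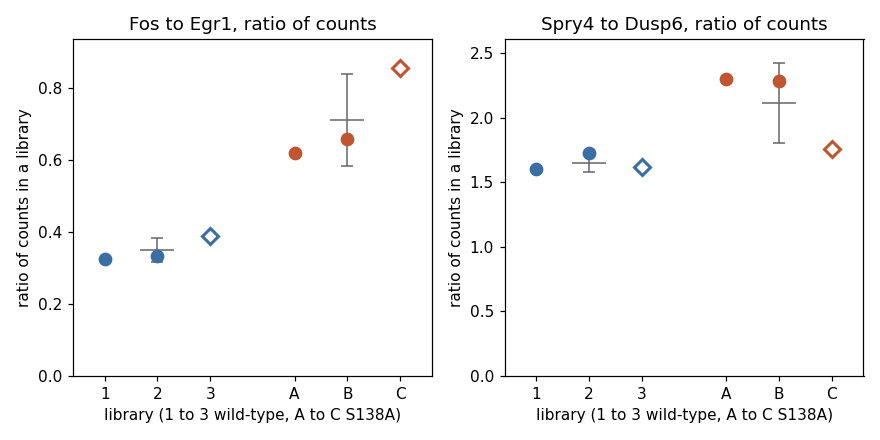
Ratio of counts within each library for *Fos* to *Egr1* (left) and *Spry4* to *Dusp6* (right), on axes from 0, with the mean and SD of 3 libraries in grey and diamonds for wild-type 3 and S138A C. In both panels every S138A library lies above the wild-type libraries, which reach 0.389 and 1.73.

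The rest of the pathway was described through 9 lists of 99 other genes, 95 of which were tested. The lists were chosen with earlier results of these data known, so an excess over the share of all genes is descriptive only. With all 6 libraries edgeR called none of them. DESeq2 called 4 of the 95 (*Fgfr1*, *Junb*, *Ier2* and *Jund*), beside 4.97% of all genes. With the replicate block 22 were higher and 5 were lower in S138A, 28.4% of those tested beside 19.8% of all genes, and the median log2 fold change over all 6 libraries was 0.14. In the 4 libraries without wild-type 3 and S138A C, 32 were higher and 8 lower, beside 29.6% of all genes. Of the 25 other immediate early genes tested, 9 were higher with the block and none was lower, beside 10.7% and 9.13% of all genes, and 6 did not overlap between genotypes, all higher, against 11.3% of all genes. *Junb*, an AP-1 subunit, was at 35.5, 35.6 and 34.5 CPM in the wild-type libraries and 47.1, 53.8 and 68.4 CPM in the S138A ones (log2 fold change 0.68, SE 0.15, edgeR adjusted p = 0.191). Unlike *Fos*, it was not raised in wild-type 3. It passed with the block (edgeR adjusted p = 0.0125), in the 4 libraries (edgeR adjusted p = 0.00434) and in DESeq2 (adjusted p = 0.00651), as did *Jund* (DESeq2 adjusted p = 0.0439) and *Ier2* (DESeq2 adjusted p = 0.0243). The others called with the block were *Fosb*, *Fosl2*, *Jun*, *Zfp36*, *Ppp1r15a* and *Csrnp1*. *Myc* (-0.03) and *Nr4a1* (0.06) had log2 fold changes near 0 and were not called.

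Among 13 other feedback inhibitors, 4 were higher with the block (*Dusp1*, *Dusp9*, *Spred3* and *Errfi1*) and none was lower, beside 10.7% and 9.13% of all genes. In the 4 libraries 6 were higher, beside 15.3%, and *Dusp16* was lower (-0.19 on the log2 scale, edgeR adjusted p = 0.0447), beside 14.3%. Over all 6 libraries 2 were higher without overlap, beside 11.3%, and *Spred2* was lower without overlap, beside 10.9%. *Dusp9*, an ERK phosphatase, measured 113.4, 121.3 and 229.6 CPM in the wild-type libraries and 227.0, 222.5 and 364.0 CPM in the S138A ones. It was thus high in wild-type 3 and S138A C, where *Dusp6* was low, and its log2 fold change was 0.81 over all 6 libraries (SE 0.32, edgeR adjusted p = 0.331) and 0.85 with the block (SE 0.08, edgeR adjusted p = 0.00398), and it passed in the 4 libraries (edgeR adjusted p = 0.000128). Of 6 receptors and co-receptors, *Fgfr1*, *Fgfr3* and *Fgfr4* were higher with the block and none was lower, beside 10.7% and 9.13% of all genes. In the 4 libraries 3 were higher and *Fgfr2* was lower (-0.39 on the log2 scale, edgeR adjusted p = 0.0354). Over all 6 libraries 2 were higher without overlap. *Klb* was lower without overlap, with means of 1.21 CPM in wild-type and 0.66 CPM in S138A (log2 fold change -0.89, edgeR adjusted p = 0.273). *Fgfr1*, the main FGF receptor of ESCs, measured 68.9, 70.9 and 77.1 CPM in the wild-type libraries and 97.1, 97.0 and 102.9 CPM in the S138A ones. Every S138A library was above every wild-type library, as for 11.3% of all genes. The log2 fold change of *Fgfr1* was 0.45 (SE 0.09, edgeR adjusted p = 0.187, 0.00938 with the block and 0.00157 in the 4 libraries). DESeq2 called it as well (adjusted p = 0.000641).

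The other lists are given by the same counts, to be read beside the 10.7% higher and 9.13% lower over all genes. With the block, 1 of 6 other ligands was lower (*Fgf15*), 1 of 10 adaptors and exchange factors was higher (*Frs3*), and of 14 RAS, RAF, MEK, ERK and RSK genes 1 was higher (*Map2k2*) and 1 lower (*Nras*). Of 5 RAS GTPase activating proteins 1 was higher (*Rasa3*) and 1 lower (*Rasal2*), and 1 of 10 other ETS factors was lower (*Gabpa*). *Fgf1* (edgeR adjusted p = 0.00196) and *Erf*, an ETS repressor (edgeR adjusted p = 0.00274), were higher in the 4 libraries but did not pass with the block. *Cbl*, the E3 ligase that marks receptors for removal, measured 37.1, 47.4 and 37.8 CPM in the wild-type libraries and 46.8, 45.7 and 40.6 CPM in the S138A ones, which overlapped (edgeR adjusted p = 0.719). Of 6 other transcripts used as ERK output, *Phlda1*, *Epha4* and *Plaur* were higher with the block and *Ccnd1*, the cyclin D1 gene, was lower. *Ccnd1* was at 236.7, 257.1 and 158.7 CPM in the wild-type libraries and 159.2, 179.2 and 76.9 CPM in the S138A ones, and its log2 fold change was -0.65 (SE 0.33, edgeR adjusted p = 0.431) and -0.71 with the block (SE 0.11, edgeR adjusted p = 0.00994), and it passed in the 4 libraries (edgeR adjusted p = 0.00249).

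**Figure D5:**
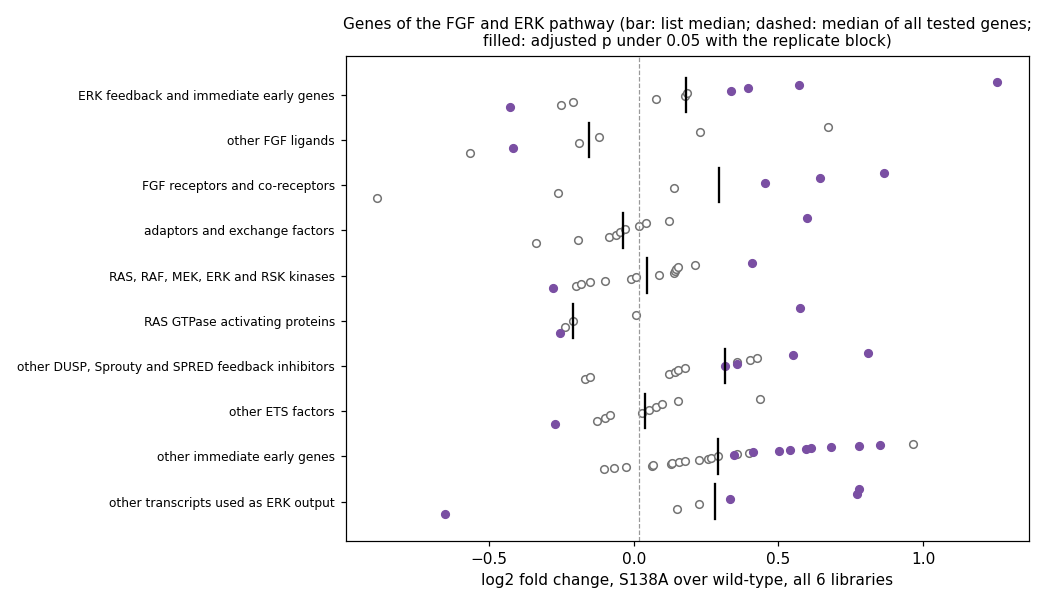
Log2 fold change over all 6 libraries of each tested gene in the lists of the pathway, with the list median (black bar) and the median of all genes (dashed, 0.02). Filled points had an adjusted p under 0.05 with the replicate block, and all filled points of the other immediate early genes and other feedback inhibitors lie above 0.

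With the block, some markers of other cell types differed between the genotypes too, while edgeR without it called none over all 6 libraries. DESeq2 over all 6 libraries, without the block, called *Col1a1*, *Col3a1*, *Thy1*, *Cdx2* and *Krt7* higher in S138A. It called *Lama1* lower, where the shares of all genes were 2.62% higher and 2.35% lower. The summed level of 8 fibroblast markers was 43.0 to 72.6 CPM in wild-type and 79.2 to 115.4 CPM in S138A libraries, and 3 of the 6 that passed the filter (*Col1a1*, *Col3a1* and *Thy1*) were higher with the block, beside 10.7% of all genes. *Col1a1* made up much of these sums, with 21.1, 20.5 and 36.1 CPM in wild-type libraries against 68.8, 75.0 and 37.9 CPM in S138A A to C. *Col1a2*, which encodes its partner chain, was at 10.9 ± 4.67 CPM in wild-type and 9.08 ± 2.80 CPM in S138A (SD, n = 3) and was not called. For 6 trophoblast markers the sums were 16.8 to 21.2 CPM and 23.9 to 42.1 CPM. With the block 3 of the 5 tested (*Cdx2*, *Krt7* and *Gata3*) were higher. *Cdx2* was low in all libraries, at 0.18, 0.38 and 0.18 CPM in wild-type and 1.39, 1.93 and 0.43 CPM in S138A A to C. None of the genes on these lists was at 0 counts in all 6 libraries, but *Lum* and *Dcn*, markers of fibroblasts, and *Elf5*, a marker of trophoblast, did not pass the filter. Of 8 primitive endoderm markers 1 (*Lama1*) was lower with the block, and *Pdgfra* measured 1.91 to 2.24 CPM in wild-type and 2.12 to 2.64 CPM in S138A libraries. The part of such cells in the levels of *Fos*, the Sprouty genes and the other members was not tested, and in these bulk samples fewer cells of a type and less RNA per cell cannot be told apart.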

How the data were processed

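PolyA RNA of 3 wild-type and 3 *Ube2d3*-S138A E14 ESC libraries was analyzed. Per the labels, the authors prepared stranded libraries, called bases in CASAVA 1.8.4, mapped the reads with TopHat2 2.0.11 on the mm9 build (NCBIM37) and counted them per gene with featureCounts, whose version, multi-mapping and strand settings are not given in the sources used here. The deposited values are raw counts for 37620 genes, of which 32897 (87.4%) matched a symbol by identifier, and 0 rows named no gene. The wild-type columns match the labels by name. The remaining columns were assigned to S138A as a group, the only other genotype.

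Counts were tested with edgeR 4.0.16 under R 4.3.3 (quasi-likelihood test, TMM factors, filterByExpr at min.count 10 and min.total.count 15, no covariate, all genes fitted together) and Benjamini-Hochberg adjustment over the 16023 genes tested, with calls under 0.05. Standard errors were derived from the log2 fold change and the square root of its F. Gene positions and transcript lengths came from GENCODE M21 on GRCm38, and upstream sequences from RefSeq. The test was also run on counts simulated with the spread of each gene in these data. There edgeR recovered 1 of 50 genes changed 1.5-fold, 17 of 50 changed 2-fold and 50 of 50 changed 8-fold. A lack of a call over all 6 libraries therefore says little about changes of 1.5-fold. Of unchanged genes edgeR called 9 and DESeq2 called 63. DESeq2 recovered 5, 29, 39 and 50 of 50 genes changed 1.5-, 2-, 4- and 8-fold. False calls were thus a larger part of its calls there than an adjusted p of 0.05 implies. The DESeq2 calls given above are to be read with this limit. Alternatives were DESeq2 1.42.0, limma-voom (limma 3.58.1), RLE and upper-quartile factors, no filter and a filter of 1 CPM in 3 libraries, an adjusted p of 0.01, each library left out, the 4 libraries without wild-type 3 and S138A C, a term for these 2, and the final digit of the column names as a replicate block. Libraries with the same digit deviated together from their group means (r across genes of 0.53, 0.493 and 0.753), above the criterion of 0.1 set for pairing. Crossing digits 1 and 2 gave 0.515 and 0.526, also above it. With wild-type 3 and S138A C apart, the other libraries deviate together however they are paired. The criterion thus cannot tell whether digits 1 and 2 pair, which rests on the column names alone.

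The members and the gene lists were chosen with earlier results of these data known. All 10 members were named in full, with up to 4 genes per list by p-value and those called, the genes *Fgfr1*, *Cbl*, *Pdgfra* and *Ube2d3*, and the 3 genes most like *Dusp6* and *Egr1*. Not every gene so named is printed. *Myc* and *Nr4a1* were named after their values were seen. Positions are not given for *Egr1* and *Spry4*.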

Additional observations from a re-analysis of the deposited data

How the results depend on the processing

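Over all 6 libraries 0 genes, 0 members and 0 genes of the other pathway lists were called. Of all genes, 4 were called with no low-count filter, 797 by DESeq2, 4756 among the 4 libraries without wild-type 3 and S138A C, 4418 with a term for these 2 and 3180 with the replicate block. Leaving out 1 library gave 0 to 79 genes, with 79 without S138A C, and 0 members. Members called were 7 in the 4 libraries, 6 with the term (which added *Dusp6* to those of the block) and 5 with the replicate block. The shares of all genes called in these 3 fits were 29.6%, 27.6% and 19.8%. Of 95 pathway genes tested, DESeq2 called 4, beside 4.97% of all genes. Pathway genes called were 40 in the 4 libraries, 34 with the term and 27 with the replicate block. The block fit changed no other call of a member. All log2 fold changes of members kept their sign under the other factors, filters and tools. With 1 library left out, *Dusp6* ran from -0.055 to 0.37 (reversed without wild-type 3), *Egr1* from -0.53 to 0.72 and *Ier3* from -0.12 to 0.51, both reversed without wild-type 1 (-0.056 and -0.12), wild-type 2 (-0.026 and -0.091) or S138A C (-0.53 and -0.10). The other 7 kept their sign, with *Fos* between 0.29 (without S138A C) and 1.93, *Dusp4* between 0.10 (without wild-type 3) and 0.58, *Spry2* between 0.23 and 0.60, *Spry4* between 0.32 and 0.84, *Spred1* between -0.43 and -0.06, *Etv5* between -0.53 and -0.26 and *Fgf4* between -0.39 and -0.00026. Levels per kilobase moved for 5 members with the mean length of all annotated transcripts, for example for *Etv5* to 320.5 and for *Fos* to 28.1 CPM per kilobase in wild-type libraries, and *Dusp6* then stood above *Spry2*.

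With 3 libraries a genotype the precision is limited, most of all for the members that differ in wild-type 3 and S138A C. Counting error was not measured against the spread between libraries, and it bears most on *Ier3*, with 291 to 709 counts a library. Clone, culture and mutation cannot be told apart, and the causes of the shifts were not tested.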
